A study of Homo sapiens with 6 samples.

Results

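The genes described here are 10 components of the bone morphogenetic protein (BMP) pathway, measured in PANC-1 cells with a knockdown of RRM2. They were taken by name from the table of 42902 genes and fall into 4 roles: the receptors ACVR1, BMPR1A and BMPR2, the signal-carrying SMADs SMAD1 and SMAD5 with the inhibitory SMAD6, the pseudoreceptor BAMBI, and the target genes ID1, ID2 and ID3. All 10 had a row in the table and passed the filter on low counts. PANC-1 cells are a human line that was derived from a ductal carcinoma of the pancreas. The study set 3 libraries of cells carrying a hairpin that targets RRM2 (shRRM2) against 3 libraries of cells with a control hairpin (shNC, genotype labelled WT). RRM2 is the small subunit of ribonucleotide reductase, which makes deoxynucleotides for DNA. Both groups carry a hairpin, no other treatment is labelled, and the labels give neither the number of hairpins nor whether replicates are separate cultures. The p-values therefore reflect only how far these 6 libraries spread, and that spread may be technical.

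BMPs are secreted ligands of the TGF-beta superfamily. They bring together type I receptor kinases such as ACVR1 and BMPR1A and type II receptor kinases such as BMPR2, and the activated type I receptor phosphorylates SMAD1 and SMAD5, which enter the nucleus with SMAD4 and switch on target genes. ID1, ID2 and ID3 are among the best known of these targets: they encode small helix-loop-helix proteins without a DNA-binding region, which hold E proteins such as TCF3 away from DNA and are widely linked to blocked differentiation and continued proliferation. SMAD6 and BAMBI are feedback inhibitors of the pathway, SMAD6 by competing with the signal-carrying SMADs and BAMBI as a receptor-like protein without a kinase domain. In epithelial cells BMPs are known to raise ID gene expression and TGF-beta to lower it.

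The starts of the 3 ID genes and of SMAD6 and BAMBI are shown because these are the 5 genes of the group that SMADs are known to regulate. A further reason is that all 5 passed the test below, though the ID2 call was fragile. Each stretch runs 5′ to 3′ on the strand of the gene, from 250 bases before to 50 bases after the start in RefSeq (GRCh38.p14). Capitals mark the SMAD box GTCT or its reverse complement AGAC and the GC-rich SMAD motif GGCGCC, which reads the same on both strands. The stretches lie at chr20:31605039-31605338 (plus strand) for ID1, chr1:23559452-23559751 (minus strand) for ID3, chr2:8681806-8682105 (plus strand) for ID2, chr15:66701986-66702285 (plus strand) for SMAD6 and chr10:28677271-28677570 (plus strand) for BAMBI.
ID1: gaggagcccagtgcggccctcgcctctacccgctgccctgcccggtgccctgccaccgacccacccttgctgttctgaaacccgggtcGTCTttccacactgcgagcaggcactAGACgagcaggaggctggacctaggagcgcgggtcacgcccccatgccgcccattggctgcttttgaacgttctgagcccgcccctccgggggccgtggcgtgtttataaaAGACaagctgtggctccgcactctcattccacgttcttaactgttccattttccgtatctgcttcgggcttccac
ID3: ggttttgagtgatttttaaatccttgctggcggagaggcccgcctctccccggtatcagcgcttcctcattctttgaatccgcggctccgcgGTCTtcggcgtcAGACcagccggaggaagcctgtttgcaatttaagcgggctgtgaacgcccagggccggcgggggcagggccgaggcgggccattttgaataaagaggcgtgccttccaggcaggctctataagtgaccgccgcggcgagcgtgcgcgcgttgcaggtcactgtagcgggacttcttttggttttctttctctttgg
ID2: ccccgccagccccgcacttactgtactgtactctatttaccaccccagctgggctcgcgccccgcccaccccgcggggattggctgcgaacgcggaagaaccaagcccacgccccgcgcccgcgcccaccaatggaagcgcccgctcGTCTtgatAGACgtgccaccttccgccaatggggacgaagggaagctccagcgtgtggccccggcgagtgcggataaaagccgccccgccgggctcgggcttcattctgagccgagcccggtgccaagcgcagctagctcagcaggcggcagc
SMAD6: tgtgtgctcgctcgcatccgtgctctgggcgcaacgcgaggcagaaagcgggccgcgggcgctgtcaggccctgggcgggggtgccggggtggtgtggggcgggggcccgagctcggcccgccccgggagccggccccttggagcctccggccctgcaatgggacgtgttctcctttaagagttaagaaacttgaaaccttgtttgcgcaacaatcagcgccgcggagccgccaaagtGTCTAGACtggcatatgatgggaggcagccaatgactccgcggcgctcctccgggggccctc
BAMBI: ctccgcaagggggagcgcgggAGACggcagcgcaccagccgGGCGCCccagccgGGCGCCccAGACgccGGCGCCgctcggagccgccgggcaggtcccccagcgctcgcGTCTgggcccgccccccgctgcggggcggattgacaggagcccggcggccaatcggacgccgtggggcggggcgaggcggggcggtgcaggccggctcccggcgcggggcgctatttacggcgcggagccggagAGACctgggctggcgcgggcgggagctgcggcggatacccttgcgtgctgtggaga

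The BAMBI stretch held 3 copies of GGCGCC, while those of ID1, ID2, ID3 and SMAD6 held 0. Genes that fell held it too: SMAD5 held 1, ACVR1 held 1 in 1 of its 3 annotated starts and SMAD1 held 2 in each of 2 of its 5, while BMPR2, which rose, held 1 and BMPR1A 0. Among the 35116 RefSeq promoter stretches of the same length, 19.2% held at least 1 copy and 4.35% at least 2. The BAMBI stretch was also 80.0% G and C, against a median of 58.7% over all stretches. The SMAD box is short and common: 84.0% of all stretches held at least 1, with a median of 2, and the ID1, ID2, ID3, SMAD6 and BAMBI stretches held 3, 2, 2, 2 and 4. In SMAD6 the 2 boxes stand back to back as GTCTAGAC, a palindrome that 0.202% of all stretches held. ID1 also held 1 TATAAA, found on the gene's strand in 7.33% of stretches. These matches describe the sequence and are not measured binding sites. The BMP-responsive enhancer described for the mouse Id1 gene lies further upstream than these stretches reach.

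The total count per library was between 16606947 and 23300433, and levels are given as CPM, the count relative to a library size adjusted by TMM, where 1 CPM rested on 16.5 to 23.1 counts. RRM2 itself stood at 40.5, 40.7 and 39.5 CPM in shRRM2, against 203.8, 192.4 and 203.0 CPM in shNC, or 20.2% of the shNC mean. Set against each other over genes, the counts of 2 libraries of 1 group differed by a chi-square per degree of freedom of 3.41 and 3.69 for the pairs with shRRM2 replicate 2, 2.2 for the other shRRM2 pair and 2.37 to 2.64 for the shNC pairs, against 26.8 to 31.8 between groups. The keratins KRT8, KRT18 and KRT7 of epithelial cells were abundant, with 11206 to 31909 counts in each library, and the 6 epithelial markers together took 4200 to 4250 CPM in shRRM2 and 2940 to 3110 CPM in shNC. KRT8, KRT18, the mucin MUC1 and EPCAM rose (0.60, 0.45, 0.85 and 1.47) and KRT7 was lower (−0.07). The ductal keratin KRT19 had 0 to 6 counts per library. EPCAM had 12, 16 and 11 counts in shRRM2, against 4, 3 and 7 in shNC, and passed the filter through the group in which it was high. The fibroblast genes DCN, LUM, COL1A2 and PDGFRA had 8, 13, 7 and 3 counts over all 6 libraries, while COL1A1 and PDGFRB rose (0.73 and 1.65), and the 6 together took 59.7 to 63.5 CPM in shRRM2 and 27.2 to 29.5 CPM in shNC. The immune genes PTPRC, CD3E and LYZ had 5, 0 and 1 counts, while CD68, also found outside immune cells, rose (1.67), and the 4 together took 80.5 to 83.9 CPM in shRRM2 and 25.2 to 26.5 CPM in shNC. The part of these marker differences in the results below was not tested.

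Of the 10 genes, 7 fell and 2 rose in shRRM2, and BMPR1A did not pass the test. The test was edgeR's quasi-likelihood test with Benjamini-Hochberg adjustment over 15866 genes and a threshold of 0.05. The knockdown went with change in a large part of the transcriptome: 52.1% of all tested genes passed, 26.0% higher and 26.1% lower. The 7 genes that fell were ID1, ID2, ID3, ACVR1, SMAD1, SMAD5 and SMAD6, and the 2 that rose were BMPR2 and BAMBI. Each fold change is the log2 of shRRM2 over shNC. Their median over the 10 genes was −0.33, against −0.01 over all tested genes, and their median size was 0.45 against 0.26, with 8 of the 10 above that size. Over all genes that passed the test, the median size was 0.39. The genes were chosen with earlier results of these data known, so these medians describe the 10 and test nothing. In CPM the groups did not overlap for 9 of the 10 genes, where 57.8% of all tested genes had groups that did not overlap. RNA from bulk samples does not tell fewer cells with a transcript from less of it in each cell.

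**Figure D1:**
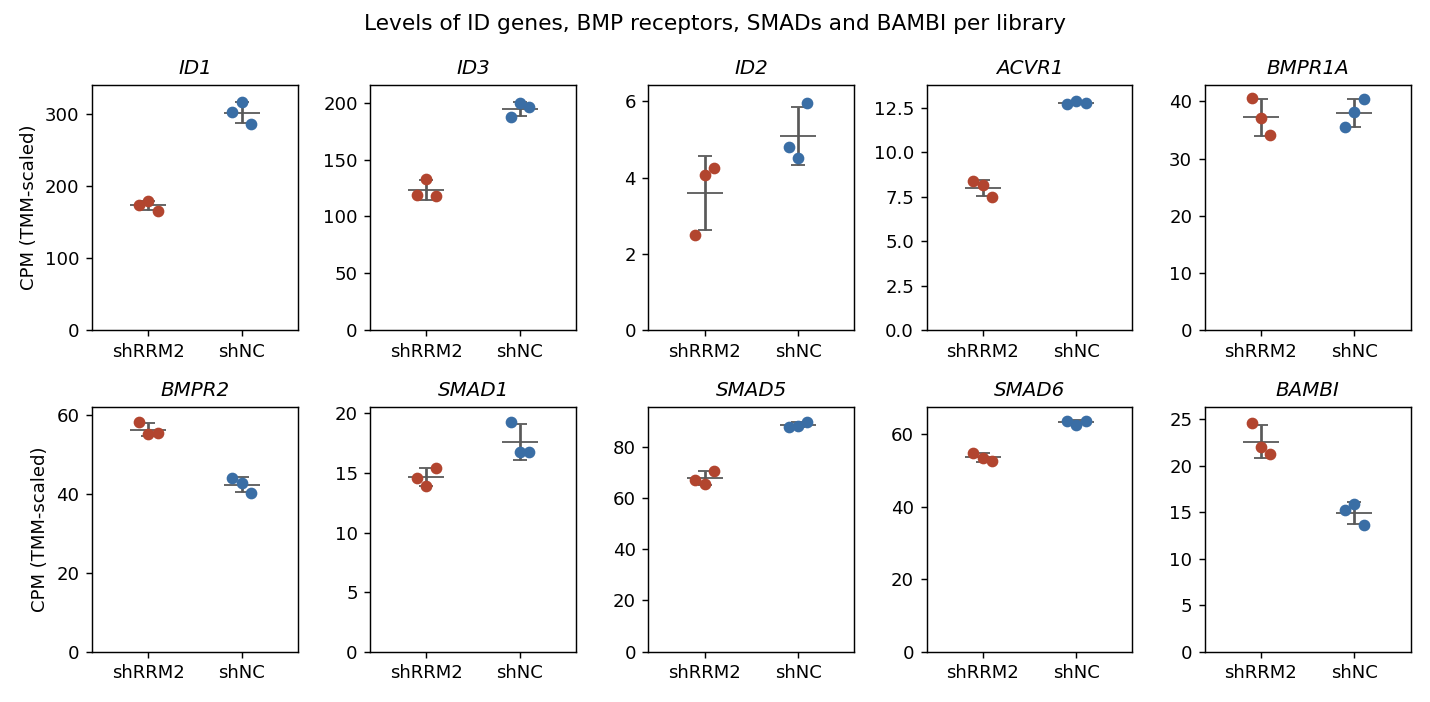
Level of each of the 10 genes in every library, as CPM on TMM-scaled library sizes, with each library as a point and the mean with its SD as bars (n = 3 per group, axes from 0). The groups are apart for every gene except BMPR1A, with ID1 at 165.8 to 179.4 CPM in shRRM2 and 286.6 to 316.3 CPM in shNC.

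The ID genes fell, and ID1 and ID3 were the most abundant genes of the 10. ID1 (Gene ID 3397, chromosome 20, 31605289 to 31606510, GRCh38.p14, plus strand) stood at 173.3, 179.4 and 165.8 CPM in shRRM2 replicates 1 to 3, against 302.0, 316.3 and 286.6 CPM in shNC replicates 1 to 3. Every shRRM2 library lay far below every shNC library. On the log2 scale this was a change of −0.80 (SE 0.0378, adjusted p = 2.10e-18), to 57.3% of the shNC mean. Of all tested genes, 10.5% had a larger change in either direction.

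ID3 (Gene ID 3399, chromosome 1, 23557926 to 23559501, minus strand), whose protein binds the same E proteins, stood at 118.6, 133.4 and 118.3 CPM in shRRM2, against 187.8, 200.5 and 196.4 CPM in shNC. The groups were again apart, and the spread within each was small beside the gap. The difference came to −0.66 (SE 0.0425, adjusted p = 1.69e-14), or 63.4% of the control level. A long noncoding gene, LOC124903876, overlaps ID3 and had 140 counts over all 6 libraries, against 18029 for ID3.

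ID2 (Gene ID 3398, chromosome 2, 8682056 to 8684461, plus strand), the member of the family best known for binding RB1, was scarce in these cells. Its counts were 44, 81 and 77 in shRRM2, against 84, 104 and 98 in shNC, or 2.49, 4.08 and 4.25 CPM against 4.80, 4.51 and 5.95 CPM. The groups did not overlap, but the highest shRRM2 library and the lowest shNC library were close, and shRRM2 replicate 1 lay well below the other two. The fold change was −0.48 (SE 0.197, adjusted p = 0.0397), and this call was fragile. Leaving out shRRM2 replicate 1 ended it (−0.28, adjusted p = 0.27), as did leaving out shNC replicate 1 (−0.52, adjusted p = 0.0542) or shNC replicate 3 (−0.36, adjusted p = 0.179). It did not pass with library size alone, DESeq2 or limma-voom either (adjusted p = 0.0589, 0.0831 and 0.0512). ID4, the remaining gene of the family, had 0 counts in every library, where 3 counts would be 0.13 to 0.182 CPM.

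The proportions of the 3 ID genes were compared within libraries. ID1 made up 58.9%, 56.6% and 57.5% of the ID1, ID2 and ID3 counts in shRRM2, against 61.1%, 60.7% and 58.6% in shNC, and ID2 made up 0.845% to 1.48% in shRRM2 and 0.865% to 1.22% in shNC. The count ratio of ID1 to ID3 was 1.46, 1.34 and 1.40 in shRRM2, against 1.61, 1.58 and 1.46 in shNC. A ratio within a library does not depend on how libraries are scaled, and 8 such ratios were compared with an exact two-sided permutation test over libraries, of which 6 were chosen after the values were seen. With 3 libraries against 3 the smallest p this test can give is 0.1, so none could pass. The ID1 to ID3 ratio differed by −0.14 on the log2 scale, more than its SD of 0.06 in shRRM2 and 0.0741 in shNC, and shRRM2 replicate 1 and shNC replicate 3 were nearly equal (exact permutation p = 0.2, adjusted over the 8 ratios 0.267). The ratios of ID1 to ID2 and of ID3 to ID2 differed by −0.28 and −0.13 (exact permutation p = 0.4 and 0.7, adjusted 0.457 and 0.7), less than the SD between the shRRM2 libraries of 0.442 and 0.399.

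The E proteins that ID proteins bind did not move together. TCF3 stood at 183.1, 182.5 and 175.5 CPM in shRRM2, against 136.6, 136.9 and 124.4 CPM in shNC, and rose by 0.44 (SE 0.0399, adjusted p = 2.70e-11). TCF12 was lower at −0.26 (adjusted p = 0.000318), and TCF4, at 1.78 ± 0.0787 CPM in shRRM2 and 1.20 ± 0.207 CPM in shNC (SD, n = 3 each), did not pass (0.57, adjusted p = 0.125). USP1, a deubiquitinase that stabilises ID proteins, was lower at −0.17 (adjusted p = 0.000232). There were 0.947, 0.983 and 0.945 counts of ID1 for each count of TCF3 in shRRM2, against 2.21, 2.31 and 2.30 in shNC. That ratio, among those chosen after the values were seen, was 0.421 times as high in shRRM2 (exact permutation p = 0.1, the smallest possible, adjusted 0.16). The libraries of the groups were far apart, which follows from the fall of ID1 and the rise of TCF3, each without overlap.

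Among the 3 receptors, ACVR1 fell, BMPR2 rose and BMPR1A did not pass. ACVR1 (Gene ID 90, chromosome 2, 157736446 to 157876330, minus strand), a type I receptor, stood at 8.37, 8.15 and 7.51 CPM in shRRM2, against 12.7, 12.9 and 12.8 CPM in shNC. The shNC libraries were nearly equal and all above the shRRM2 libraries. The fold change was −0.67 (SE 0.12, adjusted p = 1.50e-05), resting on 136 to 297 counts per library.

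BMPR2 (Gene ID 659, chromosome 2, 202376327 to 202567749, plus strand), the type II receptor, stood at 58.2, 55.0 and 55.4 CPM in shRRM2, against 43.8, 42.7 and 40.3 CPM in shNC. All shRRM2 libraries were above all shNC libraries, and the log2 change was 0.41 (SE 0.0584, adjusted p = 3.89e-07). BMPR1A (Gene ID 657, chromosome 10, 86755763 to 86932844, plus strand), the other type I receptor, stood at 40.5, 37.0 and 34.1 CPM in shRRM2, against 35.4, 38.2 and 40.3 CPM in shNC. The groups overlapped fully, and the log2 change was −0.03 with a 95% interval from −0.17 to 0.11 (adjusted p = 0.75). RefSeq lists the pseudogenes BMPR1AP1 and BMPR1AP2 of BMPR1A and ID2B of ID2, and how reads shared with such copies were counted is not given in the sources used here.

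The opposite moves of ACVR1 and BMPR2 changed their proportion. There were 6.95, 6.75 and 7.37 counts of BMPR2 for each count of ACVR1 in shRRM2, against 3.44, 3.32 and 3.16 in shNC, a ratio 2.13 times as high in shRRM2. The BMPR2 to BMPR1A ratio was 1.44, 1.49 and 1.63 in shRRM2, against 1.24, 1.12 and 0.998 in shNC. Neither ratio overlapped between the groups (exact permutation p = 0.1 for each, adjusted 0.16, both chosen after the values were seen). Because ACVR1 fell and BMPR2 rose without overlap, the separation of their ratio follows from those values and is no further evidence.

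SMAD5 and SMAD6 fell by small amounts, SMAD1 passed less firmly and SMAD9 did not pass. SMAD5 (Gene ID 4090, chromosome 5, 136132845 to 136182733, plus strand), the more abundant of the signal-carrying SMADs here, stood at 67.1, 65.5 and 70.8 CPM in shRRM2, against 87.9, 88.3 and 90.0 CPM in shNC. The groups were well apart, and the log2 change was −0.39 (SE 0.048, adjusted p = 2.50e-08). SMAD6 (Gene ID 4091, chromosome 15, 66702236 to 66782849, plus strand), the inhibitory SMAD and itself a BMP target, stood at 54.8, 53.3 and 52.5 CPM in shRRM2, against 63.5, 62.6 and 63.5 CPM in shNC. The gap was small but wide beside the spread within the groups, at −0.24 (SE 0.0528, adjusted p = 0.000267).

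SMAD1 (Gene ID 4086, chromosome 4, 145480770 to 145559176, plus strand) stood at 14.6, 13.9 and 15.4 CPM in shRRM2, against 19.3, 16.7 and 16.8 CPM in shNC. The groups did not overlap, with shNC replicate 1 well above the rest, and the log2 change was −0.26 (SE 0.0999, adjusted p = 0.0263). Leaving out shRRM2 replicate 1 ended the call (−0.26, adjusted p = 0.0586), and so did leaving out shRRM2 replicate 2 (−0.22, adjusted p = 0.0925). It also ended when shNC replicate 1 was left out (−0.20, adjusted p = 0.148), and with library size alone or DESeq2 (adjusted p = 0.057 and 0.054). SMAD9, the remaining SMAD of the BMP branch, had 32 to 61 counts per library and did not pass (0.20, adjusted p = 0.54), with a value that ran from −0.11 without shNC replicate 2 to 0.56 without shNC replicate 1. The count ratio of SMAD6 to SMAD5 was 0.816, 0.814 and 0.742 in shRRM2, against 0.723, 0.709 and 0.706 in shNC (exact permutation p = 0.1, adjusted 0.16, chosen after the values were seen).

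BAMBI (Gene ID 25805, chromosome 10, 28677521 to 28682932, plus strand) rose, where SMAD6 and the ID genes, likewise known as SMAD targets, fell, ID2 by a fragile call. Among the other target genes described below, MSX1 rose, JUNB rose by a fragile call, and ATOH8, HEY1 and MSX2 did not pass. BAMBI stood at 24.6, 22.0 and 21.3 CPM in shRRM2, against 15.2, 15.9 and 13.6 CPM in shNC. The groups were apart, and the log2 change was 0.59 (SE 0.0948, adjusted p = 2.70e-06), or 151% of the control level. There were 0.142, 0.123 and 0.128 counts of BAMBI for each count of ID1 in shRRM2, against 0.0503, 0.0503 and 0.0475 in shNC, a ratio 2.65 times as high in shRRM2 (exact permutation p = 0.1, adjusted 0.16, chosen after the values were seen). This separation follows from the rise of BAMBI and the fall of ID1, each without overlap.

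**Figure D2:**
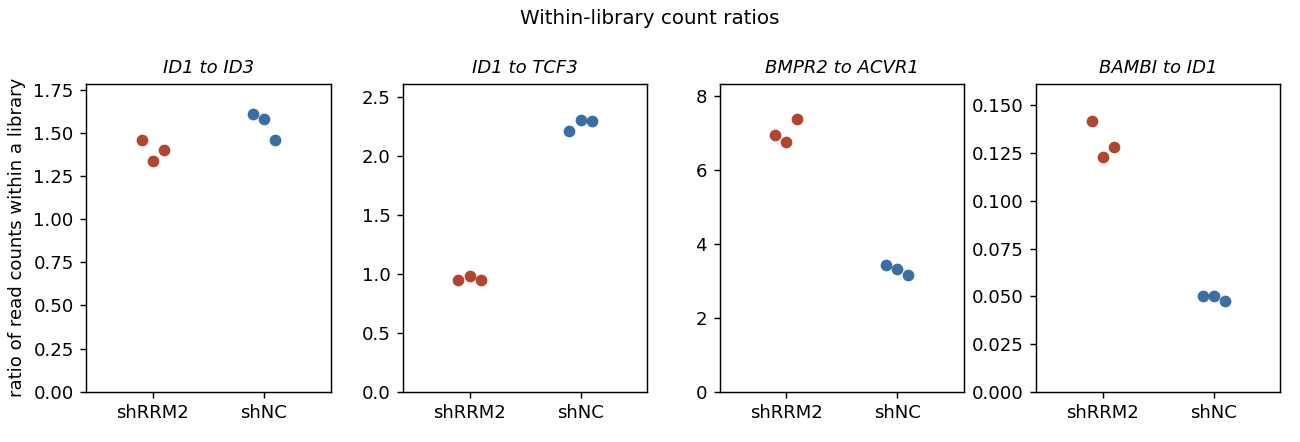
Ratio of read counts within each library for ID1 to ID3, ID1 to TCF3, BMPR2 to ACVR1 and BAMBI to ID1, with each library as a point (n = 3 per group, axes from 0). The ID1 to TCF3 ratio is 0.945 to 0.983 in shRRM2 and 2.21 to 2.31 in shNC, while the ID1 to ID3 ratio is 1.34 to 1.46 in shRRM2 and 1.46 to 1.61 in shNC.

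**Figure D3:**
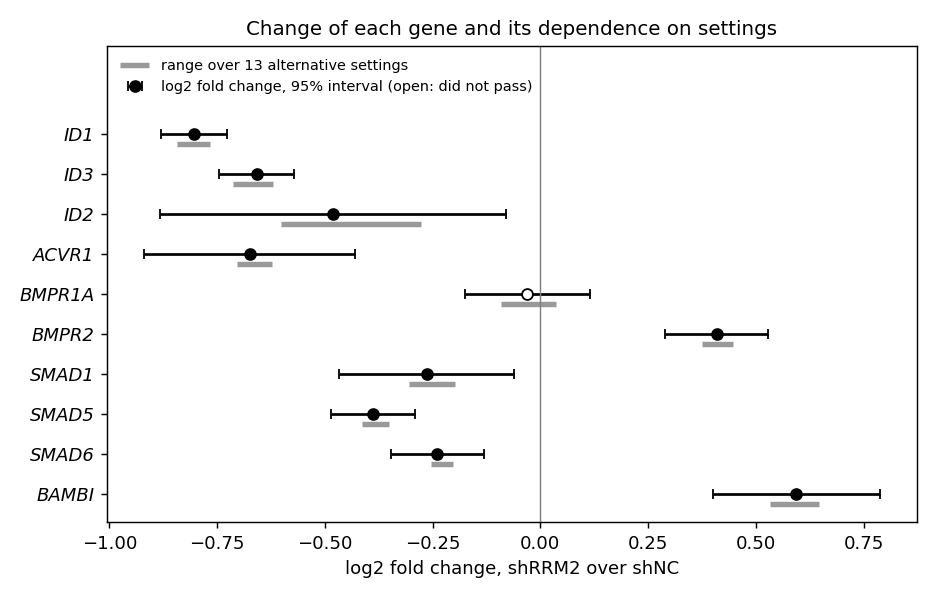
Log2 fold change of each gene, shRRM2 over shNC, with its 95% interval (circles and thin bars, open where the test did not pass) and the range of the estimate over 13 alternative settings (grey bars). ID1, at −0.80, keeps a range of −0.84 to −0.77, while ID2 runs from −0.60 to −0.28 and BMPR1A lies on both sides of 0.

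To set levels of different genes side by side, CPM was divided by the length of all annotated exons in kb (GENCODE 29). In both groups ID1 stood first, at 140 CPM per kb in shRRM2 and 245 CPM per kb in shNC, followed by ID3 at 68.7 and 108 CPM per kb, and ID2 stood last at 1.64 and 2.31 CPM per kb. In shRRM2 the order between them was BAMBI, SMAD5, SMAD6, BMPR2, BMPR1A, SMAD1 and ACVR1, from 9.77 to 2.01 CPM per kb, and only the libraries of ACVR1 and ID2 overlapped. In shNC it was SMAD5, SMAD6, BAMBI, BMPR2, BMPR1A, ACVR1 and SMAD1, from 9.82 to 2.91 CPM per kb, and the libraries of BMPR2, BMPR1A and ACVR1 overlapped between neighbours. The middle of this order depends on the length used: with the longest coding transcript, tried after the data were examined, SMAD6 stood next after ID3 in both groups and SMAD1 stood at 7.03 CPM per kb in shRRM2 and 8.44 CPM per kb in shNC, while ID1 and ID3 stayed first and ID2 last.

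The 3 genes whose log2 CPM followed ID1 most closely over the 6 libraries were LRFN4, ARIH2 and OXA1L, with Pearson's r of 0.9996, 0.9995 and 0.9989. All 6 points come from 2 groups that differ in ID1, and 198 genes had an r above 0.99, so that these values mostly restate the gap between the groups. LRFN4 was at 77.7 CPM in shRRM2 and 147 CPM in shNC.

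A wider list of 66 other genes of the pathway was described by role. Of these, 46 passed the filter, of which 17 rose, 14 fell and 15 did not pass the test, against 26.0% higher and 26.1% lower over all tested genes. The median log2 fold change of the 46 was 0.05. The other 20 held 0 to 43 counts over all 6 libraries, and 10 of them had 0 in every library. Genes with few counts, such as GDF6, BMP4, CHRDL2 and BMPER, passed the filter through the group in which they were high. Their counts among the genes that rose are therefore no sign of a direction of the list.

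Of 12 ligand genes, 6 passed the filter, of which 2 rose and 2 fell, where 26.0% of all tested genes were higher and 26.1% lower. The 2 that rose, BMP4 and GDF6, passed the filter through shRRM2, so this count is no sign of a direction of the ligands. BMP4, a ligand with broad roles in development, had 37, 40 and 29 counts in shRRM2, against 4, 3 and 4 in shNC, and rose by 3.25 (SE 0.45, adjusted p = 2.21e-07). It remained scarce at 1.90 ± 0.264 CPM in shRRM2 and 0.201 ± 0.0614 CPM in shNC (SD, n = 3 each). GDF6, a ligand of joint and eye development, had 13, 13 and 17 counts in shRRM2, against 2, 0 and 0 in shNC, a ratio of 22.0 with a 95% interval for counting error of 5.74 to 188 (adjusted p = 4.25e-05).

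BMP2 and BMP6 were the most abundant of the ligand genes. BMP2, named here after its values were seen, stood at 79.2, 79.9 and 81.4 CPM in shRRM2, against 96.2, 95.2 and 92.7 CPM in shNC, and was lower at −0.24 (adjusted p = 3.06e-05). BMP6, also named after its values were seen, was at 56.1 ± 0.753 CPM in shRRM2 and 53.9 ± 2.66 CPM in shNC (SD, n = 3 each) and did not pass (0.06, adjusted p = 0.386). BMP8B, at 14.9 ± 0.613 CPM in shRRM2 and 21.7 ± 1.13 CPM in shNC (SD, n = 3 each), was lower at −0.54 (adjusted p = 7.20e-06), and BMP8A, a near copy of it whose reads may be shared, did not pass (−0.22, adjusted p = 0.334). The ligands BMP5, BMP7, BMP10, GDF2, GDF5 and GDF7 were below the filter, with 37, 0, 0, 0, 3 and 4 counts in total.

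Of 18 secreted antagonists and modulators, 11 passed the filter, of which 6 rose and 2 fell, where 26.0% of all tested genes were higher and 26.1% lower. The 6 include BMPER and FSTL1, whose calls were lost when single libraries were left out. They also include CHRDL2, which relied on its shRRM2 counts to pass the filter. FST (follistatin), which binds activins and some BMPs, stood at 51.3, 53.2 and 54.4 CPM in shRRM2, against 26.9, 31.6 and 30.4 CPM in shNC, and rose by 0.83 (SE 0.0666, adjusted p = 1.50e-12). Its relative FSTL3 stood at 142.8, 146.2 and 147.9 CPM in shRRM2, against 245.2, 249.3 and 237.9 CPM in shNC, and moved the other way, at −0.75 (SE 0.0354, adjusted p = 2.80e-18). TWSG1, which binds BMPs together with chordin, was lower at −0.61 (adjusted p = 1.65e-07). BMP1, a protease that cleaves chordin and procollagens and is no BMP ligand, rose by 0.32 (adjusted p = 3.36e-09).

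KCP, CHRDL2 and BMPER passed at low levels. KCP, known in mice to enhance BMP signalling, had 145 to 178 counts in shRRM2 and 25 to 36 in shNC (2.40, adjusted p = 4.82e-12), and CHRDL2, a chordin-like antagonist, 25 to 38 and 6 to 18 (1.46, adjusted p = 0.00122). The shNC libraries alone, at 6 to 18 counts, would not have carried CHRDL2 through the filter. BMPER had 13, 20 and 11 counts in shRRM2, against 3, 3 and 12 in shNC, and only just passed (1.28, adjusted p = 0.0497). It passed in 1 of the 6 fits that left out a library, that without shNC replicate 3 (2.36, adjusted p = 0.00443), and the other 5 ran down to 0.81 without shNC replicate 2 (adjusted p = 0.273). Nor did it pass with DESeq2, without the filter or with the replicate block (adjusted p = 0.123, 0.0837 and 0.0562). FSTL1, the most abundant of these genes at 330.9 ± 3.35 CPM in shRRM2 and 307.5 ± 10.7 CPM in shNC (SD, n = 3 each), rose by 0.11, a call lost without shNC replicate 1 (0.07, adjusted p = 0.0852). The antagonists NOG (noggin) and CHRD (chordin), at −0.38 and −0.67, did not pass (adjusted p = 0.0677 and 0.156), and neither did NBL1 (0.24, adjusted p = 0.3). GREM1, SOST, SOSTDC1, CER1, CHRDL1 and DAND5 were below the filter, with 0 to 43 counts in total.

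Of 9 other receptors and co-receptors, 6 passed the filter, of which 3 rose and 0 fell, where 26.0% of all tested genes were higher and 26.1% lower. ACVRL1, a type I receptor best known in endothelial cells, had 39, 42 and 42 counts in shRRM2, against 15, 19 and 16 in shNC, and rose by 1.32 (SE 0.313, adjusted p = 0.000579). Its co-receptor ENG (endoglin) was far more abundant, at 126.2, 112.2 and 125.1 CPM in shRRM2, against 98.6, 101.8 and 96.2 CPM in shNC, and rose by 0.29 (SE 0.0456, adjusted p = 2.09e-06). The 5 endothelial markers together took 4.92 to 5.60 CPM in shRRM2 and 1.54 to 1.65 CPM in shNC. Of these, CDH5 and VWF passed the test and rose, KDR was at 0, and PECAM1 and TEK had 17 and 21 counts in all. VWF had 41, 41 and 31 counts in shRRM2, against 3, 11 and 7 in shNC. It passed the filter through the group in which it was high. What part these markers have in the rise of ACVRL1 and ENG was not tested. NEO1, a receptor for co-receptors of the RGM family, rose by 0.19 (adjusted p = 0.0108), a call lost without shRRM2 replicate 1 (0.16, adjusted p = 0.0612). The type II receptors ACVR2A and ACVR2B and the co-receptor RGMB did not pass (−0.13, −0.09 and −0.22, adjusted p = 0.541, 0.722 and 0.0559), though RGMB passed without shRRM2 replicate 1 (−0.28, adjusted p = 0.0326). BMPR1B, RGMA and HJV were below the filter, with 35, 10 and 0 counts in total.

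Of the 3 other SMADs, SMAD4, the partner shared by the BMP and TGF-beta branches, stood at 41.9, 36.9 and 38.4 CPM in shRRM2, against 50.2, 52.3 and 48.0 CPM in shNC, and fell (−0.36). The inhibitory SMAD7 stood at 33.3, 36.1 and 32.3 CPM in shRRM2, against 31.1, 34.4 and 27.3 CPM in shNC, with overlapping groups, and did not pass (0.13, adjusted p = 0.177). It did pass without shNC replicate 2 (0.21, adjusted p = 0.0457).

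Of 12 intracellular regulators, 11 passed the filter, of which 7 fell and 3 rose, where 26.1% of all tested genes were lower and 26.0% higher. Of the 3 that rose, the calls of TOB2 and FKBP1A were fragile. The largest fall was that of USP15, a deubiquitinase that acts on receptors and SMADs, at 60.1, 54.9 and 61.8 CPM in shRRM2, against 85.7, 79.0 and 79.6 CPM in shNC (−0.47, SE 0.0535). TOB1, which represses SMAD-driven transcription, was lower at −0.39, and CTDSP1 and CTDSPL, phosphatases that act on SMAD1, at −0.38 and −0.30. CTDSP2, PPM1A, another phosphatase, and LEMD3, which holds SMADs at the nuclear envelope, also fell. SMURF2, a ubiquitin ligase for SMADs and receptors, rose by 0.30 (adjusted p = 0.00256), while its relative SMURF1 did not pass (0.04, adjusted p = 0.548). TOB2 and FKBP1A rose by 0.14 and 0.08. The TOB2 call was lost without shRRM2 replicate 2 or shNC replicate 2 (adjusted p = 0.0625 and 0.122), and that of FKBP1A without any library other than shRRM2 replicate 1 (adjusted p = 0.0668 to 0.102). ZNF423 was below the filter, with 4 counts in total.

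Of 8 other target genes, 5 passed the filter, of which 2 rose and 0 fell, where 26.0% of all tested genes were higher and 26.1% lower. MSX1, a homeobox gene induced by BMPs, stood at 16.8, 19.2 and 18.6 CPM in shRRM2, against 13.5, 15.0 and 11.97 CPM in shNC, and rose by 0.42 (SE 0.104, adjusted p = 0.000841). JUNB rose by 0.10 (adjusted p = 0.0387), a call lost without any library other than shRRM2 replicate 3 or shNC replicate 2, down to 0.06 without shNC replicate 3 (adjusted p = 0.213). ATOH8, HEY1 and MSX2 did not pass (0.22, −0.03 and −0.19, adjusted p = 0.134, 0.844 and 0.436), and DLX5 and HAMP, like ID4, had 0 counts in every library.

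**Figure D4:**
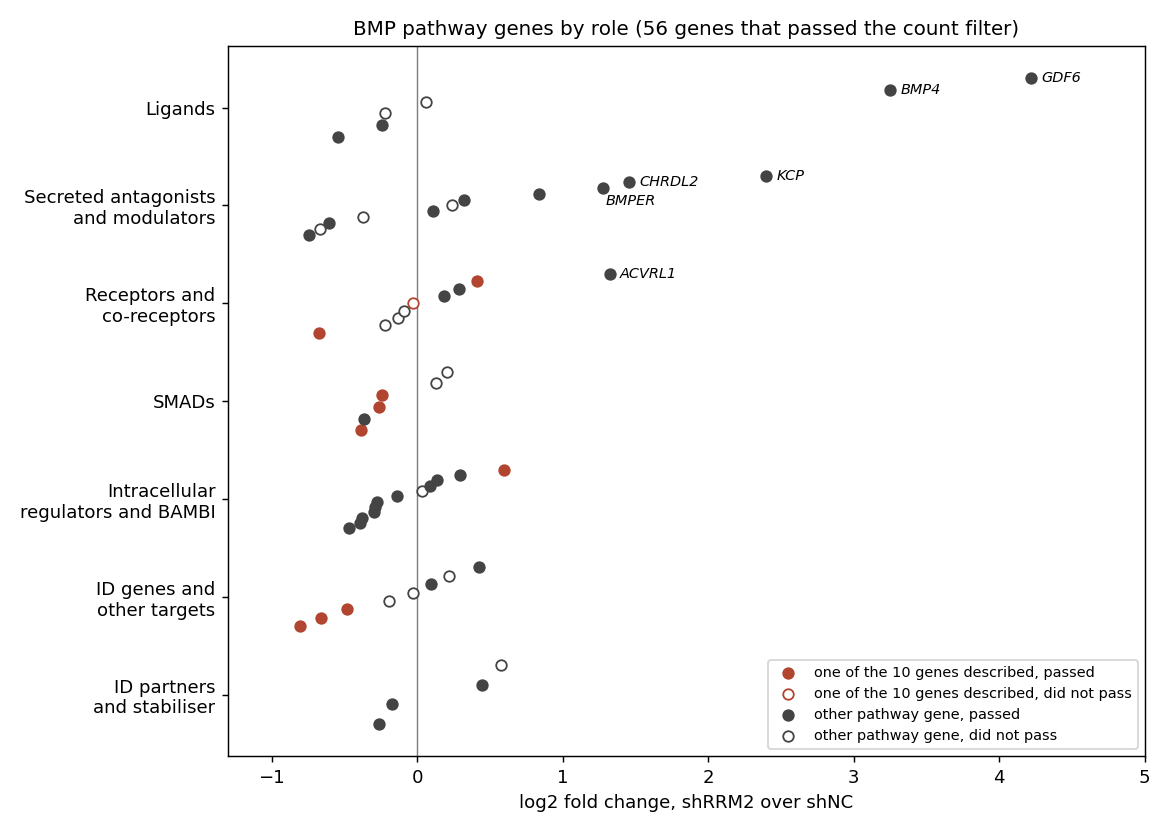
Log2 fold change, shRRM2 over shNC, of the pathway genes that passed the count filter, by role, with the 10 genes described above in red and the 46 others in grey (open where the test did not pass). ID1, ID2 and ID3 lie lowest among the targets, and the largest values, of BMP4 and GDF6, come from genes with at most 4 counts in each shNC library, so that the GDF6 point depends on the fit's prior count.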

How the data were processed

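RNA was measured by sequencing of poly(A)-selected, directional libraries, per the labels' protocols. The authors deposited 1 table of read counts (whole numbers) by NCBI Gene ID, made with fastp 0.23.4 and featureCounts on hg38, per the submitters' processing notes. The aligner, annotation release and settings for strand and shared reads are, in the sources used here, not given, so reads of overlapping or near-identical genes may have been split. Columns carry si where the labels have sh and were matched by gene name and number. Of 42902 IDs, 40120 matched a RefSeq symbol (GRCh38.p14). Sequences are from RefSeq.

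Genes were kept with filterByExpr (15866), scaled with TMM and tested in R 4.3.3 by the quasi-likelihood method of edgeR 4.0.16 (robust, group alone, two-sided), adjusted over all tested genes. SE is the size of the log2 fold change over the square root of F. The test was checked on simulated counts. Alternatives were RLE, library size alone, no filter, 1 CPM in 3 libraries, DESeq2 1.42.0, limma-voom (limma 3.58.1), a replicate block, leaving out each library and a threshold of 0.01. All 10 genes are named, then up to 20 passing genes of the wider list by size of change, and others to account for them. One gene of the wider list that was below the filter is not reported here by name. The genes and lists were chosen with earlier results of these data known.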

Additional observations from a re-analysis of the deposited data

How the results depend on the processing

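Across 13 alternatives ID1, ID3, ACVR1, BMPR2, SMAD5, SMAD6 and BAMBI passed the test in the direction reported every time, and BMPR1A passed in none. ID2 did not pass with library size alone (−0.44), DESeq2 (−0.48) or limma-voom (−0.49), and over the fits without 1 library it ran from −0.60 to −0.28, passing in 3 of 6. SMAD1 did not pass with library size alone (−0.23) or DESeq2 (−0.26), and without 1 library it ran from −0.31 to −0.20, passing in 3 of 6; the cause was not tested. The difference in the log2 ratio of ID3 to ID2 ran from −0.35 to 0.0341 without 1 library, turning its sign without shRRM2 replicate 3 (0.0341). Between 7 and 9 of the 10 genes passed under all alternatives and at a threshold of 0.01. Over all genes, 7449 passed with DESeq2 and 6672 at a threshold of 0.01, against 8261 of 15866 in the main fit. With library size alone, 56.2% of the calls over all genes were higher, against 49.9% with TMM. Same-numbered libraries did not deviate together (r of −0.00491, −0.00216 and −0.0191), so no pairing by number was visible. Whether they were prepared together cannot be told from these values. With the replicate block 8244 genes passed over all genes, against 8261, with 9 of the 10 genes and 30 of the wider list. Genes under about 1 CPM rest on few counts, and their changes are imprecise.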
